A study of Homo sapiens with 4 samples.

Results

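The genes described here are 40 genes of the amino acid and unfolded protein responses, made up of an ATF4 arm of 28 genes and an ER arm of 12 genes that encode chaperones, a regulator and degradation factors of the endoplasmic reticulum (ER). Members were found by gene symbol: every probe set whose only symbol in the platform's gene table was one of the 40 was taken. This gave 58 probe sets for 38 genes (26 of the ATF4 arm and all 12 of the ER arm), out of 11963 genes on the array. SESN2 and MARS1 had no such probe set and were not measured here. Human MDA-MB231 cells, a breast cancer line without estrogen receptor, carried a control shRNA or PIAS1 shRNA2 and were grown for 30 h in DMEM with 10% FBS (DMEM) or in Stem Cell Media (SCM). SCM is a DMEM/F-12 mixture without serum that holds albumin, glutamine, EGF, basic FGF and insulin, so the media differ in more than serum and the arrays cannot tell these components apart. Both shRNAs were delivered by lentivirus under the U6 promoter with a puromycin marker, so every cell measured was a stably transduced and selected cell, and PIAS1 knockdown rests on 1 hairpin. RNA of each of these 4 groups went onto a single Affymetrix human expression array (1 array per group), and differences therefore have no replicate check and no p-value.

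ATF4 is a transcription factor whose translation rises when the initiation factor eIF2 is phosphorylated, as happens when amino acids run short or when unfolded proteins load the ER. It pairs with C/EBP proteins and raises genes for amino acid synthesis, amino acid import and tRNA charging, together with the stress factors DDIT3 (CHOP), TRIB3 and CHAC1. The ER arm is governed mainly by ATF6 and XBP1, which raise the chaperones and the degradation machinery of the ER lumen. ATF4 itself is regulated largely through translation, which an mRNA array does not read.

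The DNA elements these factors bind are shown first. RefSeq start site windows (GRCh38.p14, 250 bases before to 50 after each start, 35116 windows of 27305 genes) were found for 36 of the 40 genes, and no window was given for YARS1, SHMT2, SLC7A11 or PSPH. Both strands were searched for the C/EBP-ATF element, TGATGNAA, and for the ER stress element, which is CCAAT, 9 bases and CCACG. A second form of the latter, ATTGG, 1 base and CCACG, was searched too, and no elements found in these genes overlapped. A match describes these letters, not a bound site. The arms were drawn from known targets of these factors, so a raised share of an element in them is no test.

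In the ATF4 arm, 11 of 24 genes with a window (45.8%) held the C/EBP-ATF element, against 4.46% of all genes with a window. These were CHAC1, CEBPG, ASNS, SLC3A2, SLC1A5, AARS1, CARS1, GARS1, NARS1, TARS1 and MARS1. The windows of ASNS (chr7:97872445-97872500, minus strand, element starting at -68), CHAC1 (chr15:40953238-40953293, plus strand, -209) and AARS1 (chr16:70289662-70289717, minus strand, -187) are shown as 1 gene each of amino acid synthesis, stress signalling and tRNA charging. All 3 lie upstream of the start, are written 5′ to 3′ on the strand of the gene and mark the fixed letters of the element in capitals. In CHAC1 and AARS1 the element lay on the other strand.
ASNS: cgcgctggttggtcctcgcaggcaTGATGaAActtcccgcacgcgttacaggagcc
CHAC1: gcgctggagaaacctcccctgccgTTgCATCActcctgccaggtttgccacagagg
AARS1: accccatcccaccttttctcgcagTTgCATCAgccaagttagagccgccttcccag

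No gene of the ATF4 arm held either form of the ER stress element. In the ER arm, 5 of 12 genes (41.7%) held the first form, against 0.0916% of all genes, and 2 of 12 (16.7%) held the second form, against 0.0696%. The first form was found in HSPA5, HSP90B1, CALR, PDIA6 and XBP1, and the second in SDF2L1 and HERPUD1. HERPUD1 was also the only ER arm gene of 12 (8.33%) with the C/EBP-ATF element. The windows shown are those of HSPA5 (chr9:125241367-125241433, minus strand, -66), HSP90B1, which held the first form at -194 (chr12:103930192-103930258, plus strand) and again at -89 (chr12:103930297-103930363), XBP1 (chr22:28800579-28800645, minus strand, -52) and the second form of HERPUD1 (chr16:56932001-56932059, plus strand, -117). Capitals mark the fixed letters, and the copy of HSP90B1 at -89 lay on the other strand.
HSPA5: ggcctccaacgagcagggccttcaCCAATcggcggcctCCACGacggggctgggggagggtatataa
HSP90B1 at -194: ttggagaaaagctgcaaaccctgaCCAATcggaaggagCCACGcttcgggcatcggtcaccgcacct
HSP90B1 at -89: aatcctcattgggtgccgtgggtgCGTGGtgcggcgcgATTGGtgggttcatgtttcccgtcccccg
XBP1: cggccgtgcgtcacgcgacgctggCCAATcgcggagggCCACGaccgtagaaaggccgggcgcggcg
HERPUD1: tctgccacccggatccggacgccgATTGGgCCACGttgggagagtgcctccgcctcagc

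**Figure D1:**
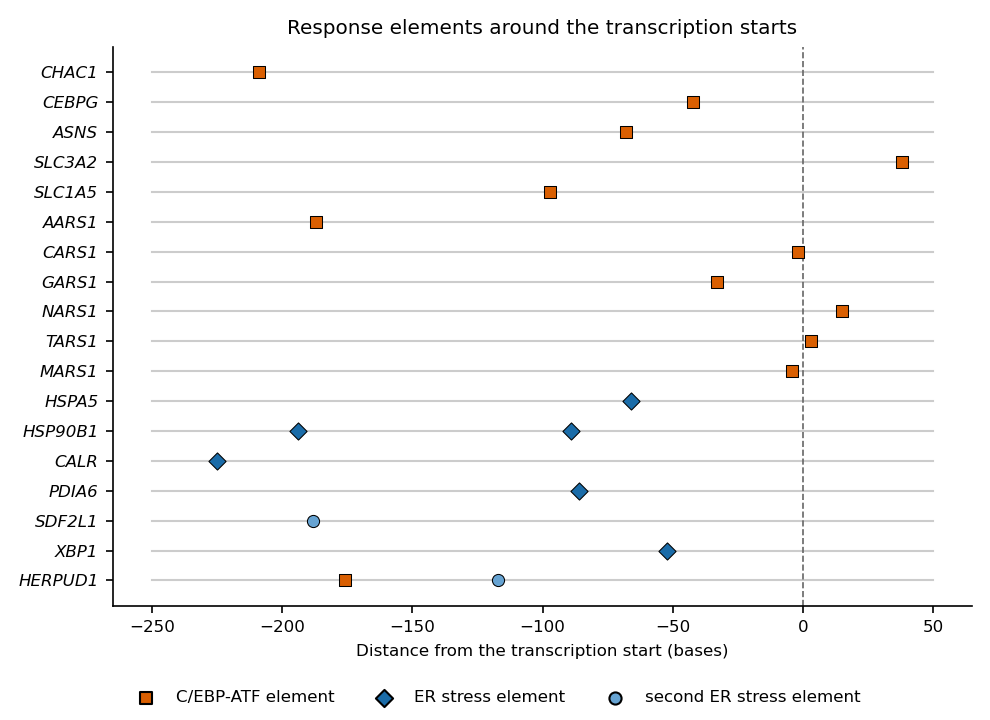
Position of the first base of each element in the windows of 18 genes, in bases from the transcription start (dashed line), with squares for the C/EBP-ATF element, diamonds for the ER stress element and circles for its second form. All ER stress elements lay upstream, from -225 in CALR to -52 in XBP1, whereas C/EBP-ATF elements ran from -209 in CHAC1 to 38 in SLC3A2.

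Levels are MAS5 signals, a linear array intensity, and each gene was read from its brightest probe set. Signals under 161, a background floor set from probe sets of genes of other tissues, were raised to it before a ratio was taken. All 38 genes lay above it on all 4 arrays, whereas the 10009 genes they are compared with had to be above it on only 1 array. Because probe sets differ in brightness, signals are compared between arrays and not between genes. PIAS1 itself read 1383 and 512 in DMEM and 1814 and 671 in SCM (the control line is given first in each pair throughout), so 37.0% of the control signal remained in either medium. VIM, CD44, EGFR, CAV1, ANXA1 and FOSL1, which mark this line, all read at least 5538, while PGR and CDH1 were under the floor on all arrays. Other genes expected to be low were above it and go against that expectation, namely ESR1 (206 to 706), ERBB2 (1677 to 2376), GATA3 (1718 to 6040) and KRT19 (3680 to 18700). The share of probe sets above the floor was between 66.6% and 70.4%, and the 3′ over 5′ signal ratio of ACTB, a check of RNA integrity, was 0.982 and 0.946 in DMEM and 1.07 and 1.11 in SCM. That of GAPDH was 0.860 and 0.858 in DMEM and 0.834 and 0.879 in SCM, with no such split. The part of the ACTB difference between the media in the results was not tested. In bulk RNA, fewer cells of a kind and less RNA per cell cannot be told apart.

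The arms differed between the media in opposite directions. In the ATF4 arm, all 4 transporters and 5 of 6 amino acid synthesis genes (all but PSPH) were lower in SCM in both lines, and the median log2 ratio of SCM over DMEM was -0.75 in control cells and -0.66 in PIAS1 shRNA2 cells. In the ER arm the corresponding medians were 0.98 and 0.91. The median over the 10009 genes above the floor was 0 in both lines. Counting differences of at least 2-fold in control cells, 3 genes of the ATF4 arm were higher in SCM and 7 lower, while 6 of the ER arm were higher and 0 lower. With the mean of each gene's probe sets 2 of the ATF4 arm were higher, since those of PSPH went in opposite directions. Over all genes above the floor, 10.4% reached that difference upward and 10% downward. In PIAS1 shRNA2 cells, 3 ATF4 arm genes were higher and 9 lower, and 6 ER arm genes were higher and 0 lower, where 10.6% of all genes were higher and 9.99% lower.

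**Figure D2:**
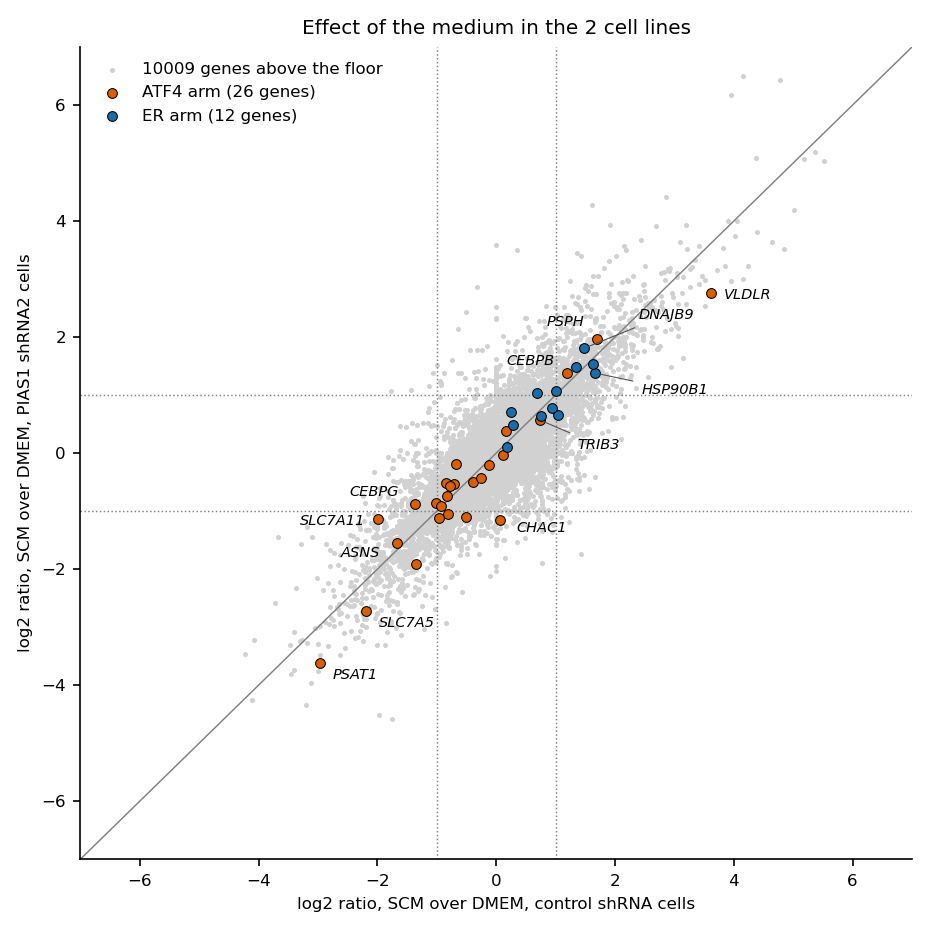
Log2 ratio of SCM over DMEM in control shRNA cells (x axis) and in PIAS1 shRNA2 cells (y axis) for 10009 genes above the floor (grey), the ATF4 arm (orange) and the ER arm (blue), with dotted lines at a 2-fold difference. All 12 ER arm genes lie above 0 on both axes, and 19 of 26 ATF4 arm genes lie below 0 on both, with VLDLR, PSPH and CEBPB far to the upper right.

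The comparisons of the medium in the 2 lines share no array. At least 1.5-fold in both lines, 3 of 26 ATF4 arm genes were higher in SCM and 11 lower, and 9 of 12 ER arm genes were higher and 0 lower. Over all genes the shares were 14.3% higher and 14.7% lower. By sign alone, 5 ATF4 arm genes were higher in both lines, 19 were lower in both and 2 (CHAC1 and DDIT3) differed, whereas all 12 ER arm genes were higher in both. Of all 10009 genes, 3696 were higher in both lines and 3619 lower in both. For some genes below, both signals of 1 medium are said to be above both of the other. How many of all genes are separated so was not counted, so this describes a gene and does not mark it out. Across the 38 genes the medium ratios of the 2 lines had a Pearson r of 0.95, and across all 10009 genes r was 0.83. The 10009 genes include dimmer ones, so the 2 values of r are not from like sets. This is a description across genes, which are not independent, read on the same 4 arrays.

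**Figure D3:**
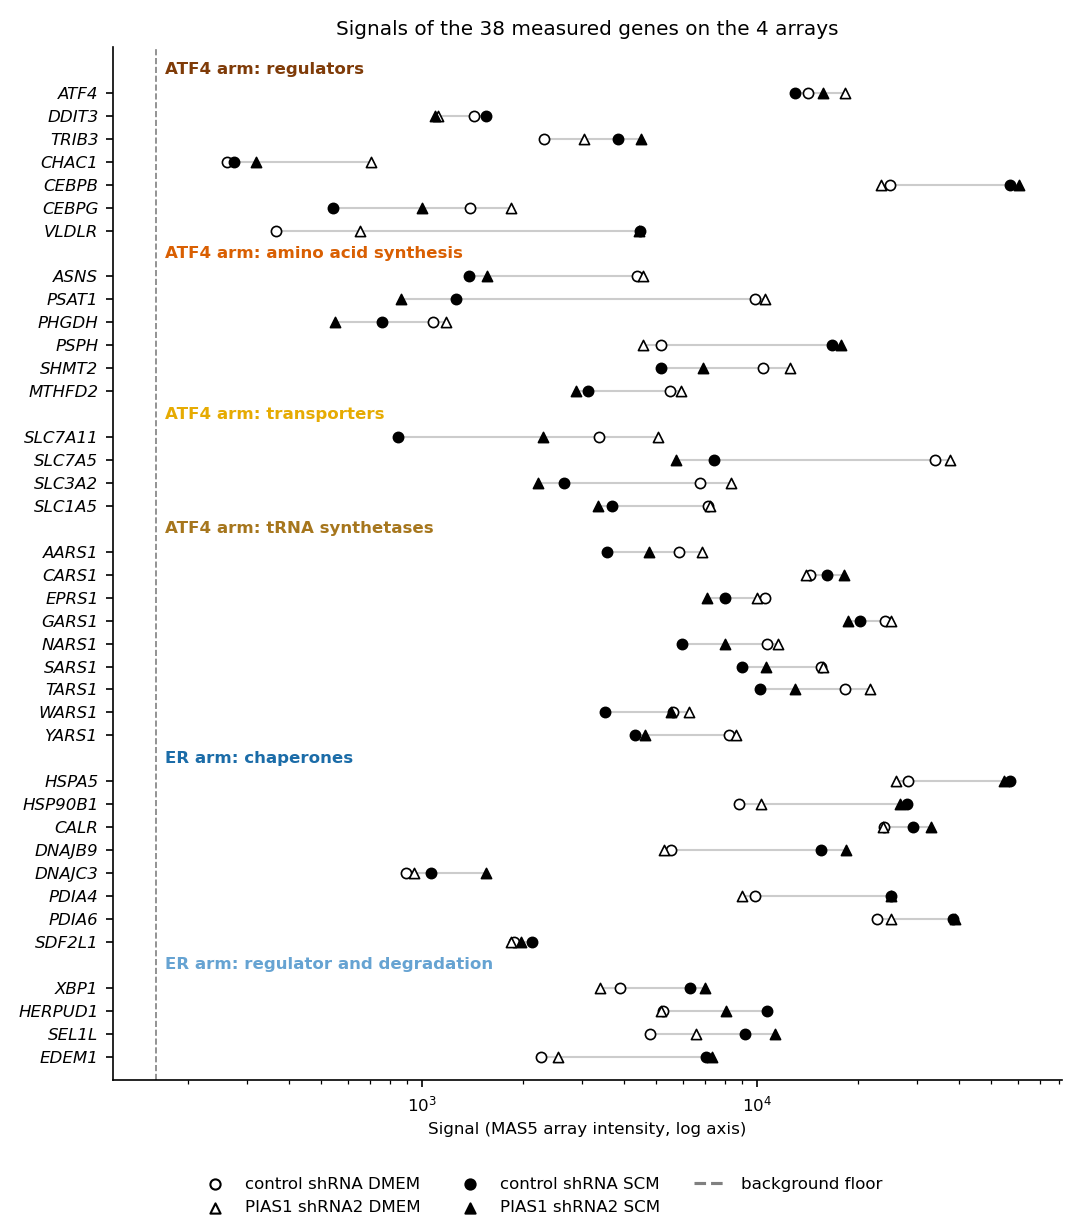
MAS5 signal (log axis) of the 38 genes on the 4 arrays, with circles for control shRNA, triangles for PIAS1 shRNA2, open symbols for DMEM, filled symbols for SCM and a dashed line at the background floor of 161. In most rows the filled and open symbols form separate pairs, with filled symbols to the left for transporters and to the right for ER chaperones.

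The regulators did not move together. ATF4 mRNA read 14173 and 18266 in DMEM and 13000 and 15762 in SCM, log2 ratios of SCM over DMEM of -0.12 and -0.21. The PIAS1 shRNA2 signal was the higher in each medium and the medium made little difference. RefSeq lists pseudogenes of ATF4, and their share of its signal was not tested. DDIT3, the CHOP factor that promotes cell death under lasting ER stress, read 1433 and 1118 in DMEM and 1555 and 1089 in SCM. It was lower in PIAS1 shRNA2 cells in each medium (log2 ratios -0.36 and -0.51) and differed little between the media. TRIB3, a pseudokinase that binds ATF4, read 2312 and 3040 in DMEM and 3857 and 4505 in SCM, with both SCM signals above both DMEM signals (log2 ratios 0.74 and 0.57).

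CEBPB and CEBPG encode partners of ATF4 and went in opposite directions. CEBPB read 25016 and 23381 in DMEM and 56902 and 60526 in SCM, 2.27-fold and 2.59-fold higher in SCM in the control and PIAS1 shRNA2 lines. CEBPG read 1393 and 1845 in DMEM and 541 and 998 in SCM, 2.58-fold and 1.85-fold lower in SCM. The lower of the CEBPB signals in SCM was above both in DMEM, and the higher of the CEBPG signals in SCM was below both. VLDLR, the very low density lipoprotein receptor, read 365 and 655 in DMEM and 4471 and 4431 in SCM. Its signal in SCM was 12.2-fold and 6.77-fold higher, the largest difference upward among the 38 genes in either line.

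For CHAC1, an enzyme that degrades glutathione, 1 array stood apart. Its signals were 262 and 705 in DMEM and 274 and 318 in SCM. The PIAS1 shRNA2 array in DMEM was above the other 3, which were near the floor. As a result the medium ratio was 0.06 in control cells and -1.15 in PIAS1 shRNA2 cells.

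Genes of amino acid synthesis were mostly lower in SCM, with medians of -0.91 and -1.08 over 6 genes. PSAT1, which makes phosphoserine from the product of PHGDH, read 9890 and 10580 in DMEM and 1261 and 865 in SCM. It was 7.84-fold and 12.2-fold lower in SCM, the largest difference downward of the 38 genes in either line. ASNS, which makes asparagine, read 4373 and 4567 in DMEM and 1377 and 1562 in SCM, 3.18-fold and 2.92-fold lower. For both genes the DMEM and SCM signals did not overlap. The lines lay close together in each medium for ASNS and in DMEM for PSAT1, while in SCM the PSAT1 signal was the lower in PIAS1 shRNA2 cells (log2 ratio -0.54).

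PHGDH, the first enzyme of serine synthesis, read 1078 and 1180 in DMEM and 760 and 550 in SCM (log2 ratios of SCM over DMEM -0.50 and -1.10). SHMT2, the mitochondrial enzyme that turns serine into glycine, read 10417 and 12530 in DMEM and 5184 and 6913 in SCM (-1.01 and -0.86). MTHFD2, which follows it in mitochondrial folate metabolism, read 5490 and 5944 in DMEM and 3126 and 2876 in SCM (-0.81 and -1.05). In each of the 3 genes both DMEM signals were above both SCM signals.

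PSPH, the last enzyme of serine synthesis, was the exception. Its brightest probe set read 5163 and 4558 in DMEM and 16751 and 17845 in SCM, 3.24-fold and 3.91-fold higher in SCM. Its other probe set read 1433 and 1256 in DMEM and 810 and 1316 in SCM, log2 ratios of -0.82 and 0.07. The probe sets thus went in opposite directions in control cells, and the direction of PSPH mRNA is uncertain. RefSeq lists a pseudogene, PSPHP1, and which transcripts each probe set reads was not tested.

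All 4 transporters were lower in SCM in both lines, with medians of -1.67 and -1.53. SLC7A5 and SLC3A2 encode the light and heavy chains of the LAT1 exchanger for large neutral amino acids. SLC7A5 read 33976 and 37706 in DMEM and 7463 and 5734 in SCM, 4.55-fold and 6.58-fold lower. SLC3A2 read 6758 and 8364 in DMEM and 2662 and 2212 in SCM, 2.54-fold and 3.78-fold lower. The chains of the exchanger thus differed in the same direction, and for each the ratio in PIAS1 shRNA2 cells was the further from 0. SLC1A5, a glutamine transporter, read 7142 and 7255 in DMEM and 3683 and 3348 in SCM, 1.94-fold and 2.17-fold lower. SLC7A11, the cystine importer subunit that also pairs with SLC3A2, read 3382 and 5071 in DMEM and 848 and 2299 in SCM, 3.99-fold and 2.21-fold lower. Here the lines differed within each medium, and the PIAS1 shRNA2 signal was the higher in both.

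The aminoacyl tRNA synthetases, which load amino acids onto tRNA, were lower in SCM by less. Their median log2 ratio over 9 measured genes was -0.71 in control cells and -0.52 in PIAS1 shRNA2 cells. None of them differed 2-fold in either line, 8 of 9 were lower in both and 1, CARS1, was higher in both. YARS1 read 8237 and 8684 in DMEM and 4332 and 4622 in SCM, and TARS1 read 18290 and 21759 in DMEM and 10244 and 12953 in SCM. These were the only 2 of the 9 at least 1.5-fold lower in both lines. SARS1 (-0.78 and -0.56) and AARS1 (-0.71 and -0.53) lay somewhat nearer to 0, and NARS1 (-0.84 and -0.52) did so in PIAS1 shRNA2 cells only. GARS1 (-0.25 and -0.43) and EPRS1 (-0.39 and -0.49) lay nearer still. WARS1 read 5618 and 6286 in DMEM and 3508 and 5543 in SCM, so that its ratio was -0.68 in control cells and -0.18 in PIAS1 shRNA2 cells. Its other probe set gave -0.72 and -0.75, without that difference between the lines. CARS1 read 14361 and 14044 in DMEM and 16151 and 18243 in SCM (0.17 and 0.38), and its other probe set was also higher in SCM (0.61 and 0.35).

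Most ER chaperones were higher in SCM. HSPA5 (BiP), the chief chaperone of the ER lumen and the protein that holds the stress sensors inactive, read 28284 and 25966 in DMEM and 56985 and 54533 in SCM, 2.01-fold and 2.10-fold higher. HSP90B1 (GRP94), the HSP90 of the ER, read 8811 and 10287 in DMEM and 28004 and 26745 in SCM, 3.18-fold and 2.60-fold higher. DNAJB9 (ERdj4), a cofactor of BiP, read 5556 and 5268 in DMEM and 15548 and 18457 in SCM, 2.80-fold and 3.50-fold higher. In all 3, both SCM signals were well above both DMEM signals.

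PDIA4 and PDIA6 are protein disulfide isomerases. PDIA4 read 9889 and 9013 in DMEM and 25092 and 25178 in SCM, 2.54-fold and 2.79-fold higher. PDIA6 read 22784 and 25136 in DMEM and 38588 and 38952 in SCM, log2 ratios of 0.76 and 0.63. In SCM the signals of the 2 lines were nearly equal for each gene.

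The remaining chaperones differed less between the media. CALR (calreticulin), the lectin chaperone of glycoproteins, read 24004 and 23717 in DMEM and 29220 and 33157 in SCM (0.28 and 0.48). DNAJC3 (P58IPK), a cofactor of BiP, read 894 and 948 in DMEM and 1065 and 1553 in SCM (0.25 and 0.71). SDF2L1, a partner of BiP and its cofactors, read 1884 and 1837 in DMEM and 2134 and 1971 in SCM (0.18 and 0.10). These 3 were the genes of the ER arm that were not at least 1.5-fold higher in both lines.

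The regulator XBP1 and 3 genes of ER-associated degradation were all higher in SCM. XBP1 read 3903 and 3401 in DMEM and 6304 and 6997 in SCM, log2 ratios of 0.69 and 1.04. Its spliced form, which encodes the active factor, is not told apart by these probe sets. HERPUD1, a membrane protein of the degradation complex, read 5251 and 5167 in DMEM and 10740 and 8109 in SCM (1.03 and 0.65). SEL1L, the adaptor of the HRD1 ubiquitin ligase, read 4801 and 6587 in DMEM and 9218 and 11337 in SCM (0.94 and 0.78). EDEM1, which hands misfolded glycoproteins on for degradation, read 2272 and 2539 in DMEM and 7045 and 7348 in SCM, 3.10-fold and 2.89-fold higher. For each of the 4 genes both SCM signals were above both DMEM signals, a separation whose share over all genes was not counted.

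**Figure D4:**
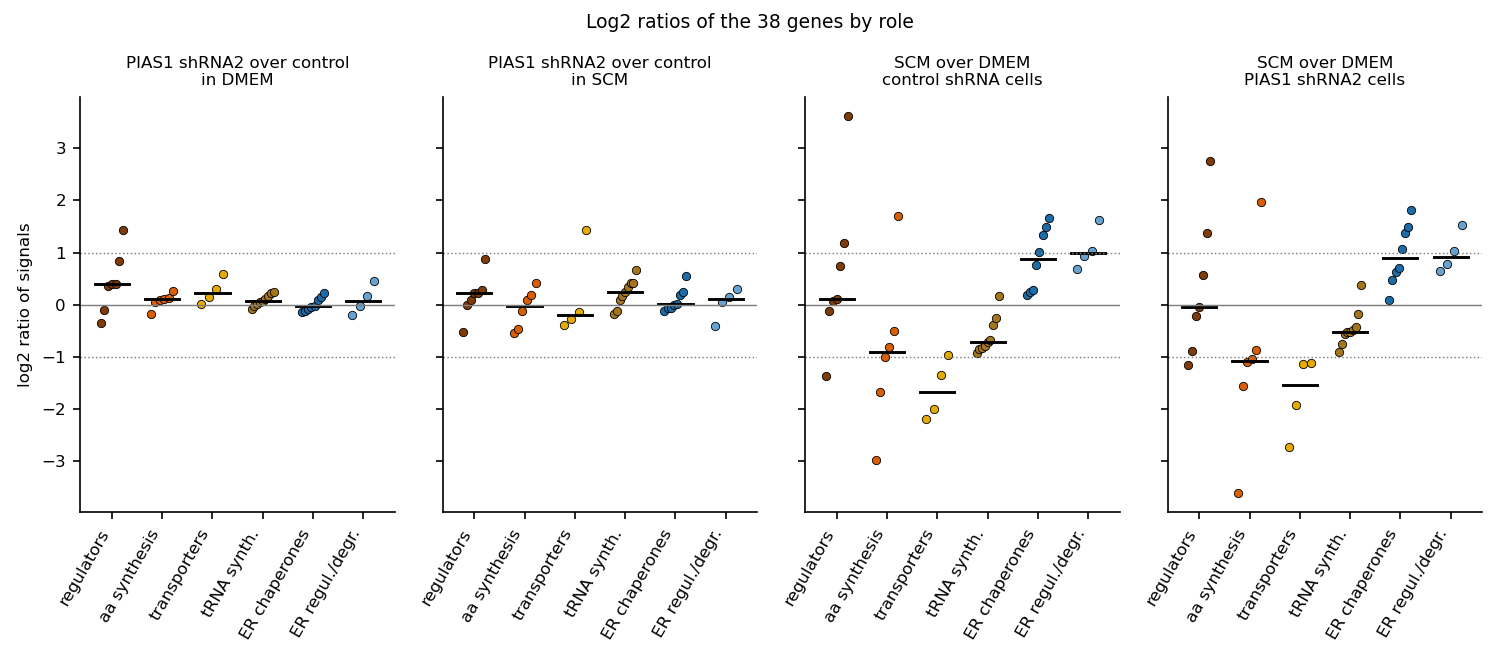
Log2 ratios of the 38 genes by role in the 4 comparisons, with 1 point per gene, a bar at the median of each role and dotted lines at a 2-fold difference. In the 2 knockdown panels only CHAC1 in DMEM (1.43) and SLC7A11 in SCM (1.44) lie past 2-fold, whereas in the medium panels the ATF4 arm roles other than the regulators have medians under 0 and the ER arm roles medians near 0.9.

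Few of these genes differed between PIAS1 shRNA2 and control cells, and few of all genes did. In DMEM, 1 gene of the ATF4 arm was at least 2-fold higher (CHAC1) and 0 lower, and 0 genes of the ER arm differed 2-fold, where 1.78% of all genes were higher and 0.979% lower. In SCM, 1 gene of the ATF4 arm was at least 2-fold higher (SLC7A11) and 0 lower, and again 0 of the ER arm, where 2.39% of all genes were higher and 1.74% lower. The median log2 ratios were 0.12 in DMEM and 0.13 in SCM for the ATF4 arm and -0.02 and 0.04 for the ER arm, beside 0 over all genes. The 2 knockdown comparisons share no array with each other, but each shares its arrays with both medium comparisons. At least 1.5-fold in both media, 0 of the 38 genes were higher and 0 lower, against 1.7% and 0.959% of all genes. These counts are too small to set the 38 genes apart from all genes. The 0 higher depends on SLC7A11, whose brightest probe set was just under the limit in DMEM (1.499-fold, and 2.71-fold in SCM). Its dimmest probe set passed the limit in both media (log2 ratios 0.92 and at least 0.60), and its remaining one only in DMEM (1.37 and 0.54).

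CHAC1 was 2.69-fold higher in PIAS1 shRNA2 cells in DMEM and its log2 ratio in SCM was 0.22. It was the only gene of the 38 (2.63%, 1 gene) whose knockdown ratio differed by at least 1 on the log2 scale between the media. Of all genes, which include dimmer ones, 6.46% did. SLC7A11 was 2.71-fold higher in SCM, with a log2 ratio of 0.58 in DMEM. Its other probe sets were also higher in PIAS1 shRNA2 cells in each medium, with log2 ratios of 1.37 and 0.92 in DMEM and of 0.54 and at least 0.60 in SCM, the last a lower bound because the control signal was under the floor. The difference was larger in SCM with the brightest probe set and in DMEM with the next, and the direction was the same with all 3.

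CEBPG (0.40 in DMEM and 0.88 in SCM), VLDLR (0.84 and -0.01) and WARS1 (0.16 and 0.66) were the other genes at least 1.5-fold higher in 1 medium. None of the 38 genes was at least 1.5-fold lower. Of all 10009 genes above the floor, 696 were that much higher and 464 lower in DMEM, and 763 and 725 in SCM. The call of WARS1 rests on its brightest probe set, as the other gave 0.17 in SCM. In the ER arm the knockdown ratios lay between -0.20 and 0.46 in DMEM and between -0.41 and 0.54 in SCM. The extremes in SCM were HERPUD1 at the low end and DNAJC3 at the high end. PSAT1 (-0.54), PHGDH (-0.47) and SLC7A5 (-0.38) had the lowest knockdown ratios in SCM among synthesis enzymes and transporters, and each was near 0 in DMEM (0.10, 0.13 and 0.15). The knockdown ratios of the 38 genes in the 2 media had r = 0.34, and r was 0.21 over all genes. The median size of the difference between the media was 0.20 for the 38 genes and 0.27 for all genes. Here too, the set of all genes includes dimmer ones than the 38.

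With 1 array per condition, probe sets of the same gene give a measure of error, though not of the spread between cultures. This was read over the 2699 genes with at least 2 probe sets above the floor on all 4 arrays, so dimmer probe sets were left out. The log2 ratios of the 2 brightest differed by a median of 0.17 and 0.19 in the knockdown comparisons and 0.24 and 0.25 in the medium comparisons. At the 90th percentile they differed by 0.59 and 0.60 and by 0.78 and 0.79. Most knockdown ratios of the 38 genes were smaller than that. The medium ratios of a number of them were larger in both lines, for example those of PSAT1, SLC7A5, ASNS, VLDLR, DNAJB9 and EDEM1. How many of all genes had medium ratios that large was not counted.

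**Figure D5:**
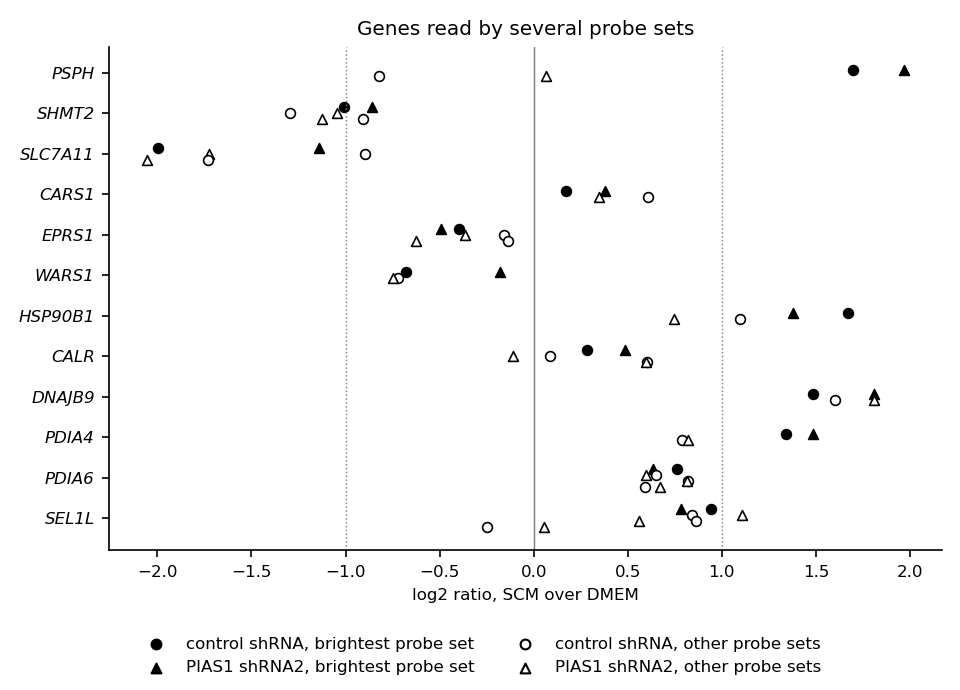
Log2 ratio of SCM over DMEM for each probe set of the 12 genes read by several, with circles for control shRNA, triangles for PIAS1 shRNA2, and filled symbols for the brightest probe set (signals under the floor raised to it). PSPH is split between the sides of 0, and the dimmest probe set of SEL1L and 1 probe set of CALR lie near 0 or to its left.

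Among the 12 genes with several probe sets, all those of SLC7A11, SHMT2, EPRS1 and WARS1 were lower in SCM in both lines. All those of HSP90B1, DNAJB9, PDIA4, PDIA6 and CARS1 were higher in both. The other probe set of HSP90B1 gave 1.09 and 0.74, below the 1.67 and 1.38 of the brightest. Both belong to a class that can also match related sequences, and RefSeq lists pseudogenes of HSP90B1. The brightest and the next probe set of CALR and of PDIA6 belong to that class too. CALR gave 0.60 and 0.60 with 1 probe set and 0.09 and -0.11 with another. A dim probe set of SEL1L (173 to 367) gave -0.25 and 0.05 where its other sets gave 0.56 to 1.11.

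Within each arm, genes with and without an element in their window were set side by side, which describes a handful of genes. Of the measured ATF4 arm, the 10 genes with the C/EBP-ATF element had a median medium ratio of -0.84 in control cells and -0.82 in PIAS1 shRNA2 cells, and the 12 without it -0.45 and -0.35. The latter held both ends of the range, PSAT1 at -2.97 and VLDLR at 3.61 in control cells. In the ER arm, the 7 genes with either form of the ER stress element had medians of 0.76 and 0.65, and the 5 without had 1.34 and 1.48. DNAJB9, PDIA4 and EDEM1, among the ER arm genes furthest above 0, had neither form within their windows.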

How the data were processed

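The deposited values are MAS5 signal intensities of 22277 probe sets on each of 4 arrays, scaled by the authors to a common level (trimmed mean 2499 per array; the tool is named in the submitters' processing notes and its version is not given in the sources used here). Array medians were 569 to 605. Genes were named from the platform annotation: 19070 probe sets had 1 gene, 1043 several and 2164 were not listed, and 19058 matched RefSeq by Entrez ID. The members and lists were chosen with earlier results of these data known. The floor (161) was the highest array's 75th percentile over 68 probe sets of 49 genes of other tissues. Ratios used log2 signals of each gene's brightest probe set, and at least 2-fold was counted as different. Only ratios, counts and medians were computed, without tests, and the computation was tested on simulated data. All members are named. From each added list, up to 4 genes at least 1.5-fold in the same direction in comparisons sharing no array were named, by mean size of log2 ratio, and PIAS1 and line markers as checks. Outside that rule, ERO1B (lower bounds only) and RARS1 (opposite directions in the lines) are named too. Windows were searched on standard chromosomes only. Alternatives were no floor, a floor at the highest array median, 2 scalings, the mean of probe sets and a 1.5-fold limit. C-terminal residues of ER chaperones were planned and not analysed here. Python 3.11.15, NumPy 2.4.6, pandas 2.3.3 and matplotlib 3.10.9 were used.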

Additional observations from a re-analysis of the deposited data

How the results depend on the processing

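Of 40 arm medians recomputed under the alternatives, 38 moved by less than 0.1 on the log2 scale and none changed sign. Of 48 counts, 42 stayed within 1.5 times. Within that limit, the ER arm's 2-fold count with the medium in control cells was 4, not 6, with arrays scaled to a common median. With quantile normalization it was 5. HSPA5 (2.01-fold) and HERPUD1 (2.05-fold) lay close to 2-fold there. With the floor at the highest array median (605), the ATF4 arm's median medium ratio in PIAS1 shRNA2 cells was -0.55 in place of -0.66, and 0 of its genes differed 2-fold with knockdown in DMEM, since CHAC1 is dim. With the mean of all probe sets, the ER arm's median medium ratio in control cells was 0.86 in place of 0.98, and 0 ATF4 arm genes differed 2-fold with knockdown in SCM, since the probe sets of SLC7A11 differ. At 1.5-fold, the ATF4 arm counts were 2 and 3 with knockdown in DMEM and SCM and 19 with the medium in control cells (4 higher and 15 lower). The ER arm count was 10 with the medium in PIAS1 shRNA2 cells. Of all 10009 genes above the floor, 696 were that much higher and 464 lower with knockdown in DMEM, and 763 and 725 in SCM. With the medium, 2139 were higher and 2024 lower in control cells, and 2099 and 2055 in PIAS1 shRNA2 cells. No paired analysis was possible because no group compared holds more than 1 array, so the groups share a single replicate number. Signal limits dim genes: CHAC1 read 262, 274 and 318 on the 3 arrays where it was lowest, against a floor of 161, and 1 array per condition leaves the spread between cultures unknown.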

Other observations

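Genes of the same pathways outside the 40 were set beside them. Of 26 other targets of the ER unfolded protein response, 22 were measured, and their median log2 ratio of SCM over DMEM was 0.66 in control cells and 0.68 in PIAS1 shRNA2 cells. At least 1.5-fold in both lines, 12 of the 22 were higher in SCM and 0 lower, where 14.3% of all genes were higher. By the mean size of the ratios in the 2 lines the first 4 were ERO1A, the oxidase that recharges disulfide isomerases (1.86 and 1.31), MANF, a secreted ER stress protein (1.54 and 1.62), SEC24D, a coat protein of vesicles that leave the ER (1.70 and 1.08), and EDEM2 (0.99 and 1.64). ERO1B has only lower bounds (at least 0.71 and 1.77), since both its DMEM signals were under the floor. In PIAS1 shRNA2 cells relative to control cells, 0 of the 22 were at least 1.5-fold higher or lower in both media, where 1.7% and 0.959% of all genes were, a share too small to set the list apart.

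Of 10 other tRNA synthetases, 7 were measured and had medians of -0.96 and -0.94, with 5 at least 1.5-fold lower in SCM in both lines, where 14.7% of all genes were. RARS1 was 1.73-fold higher in SCM in control cells, with a log2 ratio of -0.37 in PIAS1 shRNA2 cells. IARS1 (-1.43 and -1.36), HARS1 (-1.47 and -1.31), VARS1 (-1.70 and -0.94) and FARSA (-0.90 and -1.42) were the furthest from 0. Of 24 other ATF4 targets, 20 were measured and 18 of these were above the floor on at least 1 array. This list did not move one way and had medians over the 20 of 0.03 and 0.03. In both lines 5 were at least 1.5-fold higher and 3 lower in SCM, beside 14.3% and 14.7% of all genes above the floor. VEGFA, a growth factor of blood vessels (2.46 and 2.04), GDF15, a stress-induced cytokine (1.37 and 2.69), and KLHL24 (1.63 and 1.69) were higher, and ATF5, a factor related to ATF4, was lower (-2.21 and -1.52). Among 9 measured genes of the stress sensors and eIF2, 1 was at least 1.5-fold higher in SCM in both lines and 1 lower. These counts stand beside 14.3% and 14.7% of all genes and do not set the list apart. The lower one, EIF2S1, which encodes the eIF2 alpha subunit, read 18020 and 19183 in DMEM and 7499 and 8746 in SCM (-1.26 and -1.13). EIF2AK3 (PERK), the ER kinase that phosphorylates it, was higher in SCM (0.78 and 0.92).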
